A study of Mus musculus with 8 samples.

Results

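The tetraspanins are a family of 4-pass membrane proteins, and CD151 is the member that mice of the line studied here lack. The question asked of them was whether the transcript of any other member is raised or lowered in glomeruli without *Cd151*. Members were taken by their gene symbol on the array, as every symbol made of Tspan and a number together with *Cd151*, *Cd9*, *Cd37*, *Cd53*, *Cd63*, *Cd81*, *Cd82*, *Upk1a*, *Upk1b*, *Tm4sf1*, *Tm4sf4* and *Tm4sf5*. This gave 27 probes of 17 genes among the 25697 probes and 18120 symbols listed, and no probe carries the symbol *Cd82*. Glomeruli were collected on magnetic beads perfused through the heart of 4 Cd151+/+ and 4 Cd151-/- mice, all male, of the FVB/N strain and 3 weeks of age. The Cd151-/- mice carried a homozygous deletion of *Cd151*, and the labels name no other allele and no agent. RNA of each mouse was read on its own Illumina MouseRef-8 v1.1 array, so each value is 1 mouse.

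Tetraspanins gather one another and their partner proteins into clusters in the membrane, often called the tetraspanin web. CD151 sits at the base of epithelial cells, where it binds the laminin-binding integrins, and in the glomerulus it is found where podocyte foot processes meet the glomerular basement membrane. Other members have other partners, such as the protease ADAM10 for the TspanC8 group and the B cell receptor complex for CD81, and some are made mainly by blood cells or by the urothelium. TM4SF1, TM4SF4 and TM4SF5 belong to the L6 family, which also crosses the membrane 4 times but is not a tetraspanin family by sequence.

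Signals are given as normalised log2 signal, after background correction and quantile normalisation, and the probe was called detected on an array at a detection p-value of 0.05 or lower. Signals of different probes cannot be ranked as transcript levels, because each probe has its own brightness. Between 11291 and 12359 probes were detected per array. The arrays fell into sets of 4 by background, 2 arrays of each genotype in each. The lower background, 59.0 to 69.5, was that of mice 1 and 2 among the Cd151+/+ and mice 3 and 4 among the Cd151-/-, and the rest had 123 to 135. Podocyte markers were detected in every mouse, and the 7 endothelial and 5 mesangial markers were each detected in at least 1 mouse. The 5 proximal tubule markers were also detected, with a summed background-corrected signal of 14030 to 37518 in Cd151+/+ and 25899 to 44493 in Cd151-/- mice. In such bulk RNA, fewer cells of a type cannot be told apart from less RNA per cell.

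Of the 17 member genes, 10 had a probe detected on at least 1 array and were tested, and 7 genes were detected in every mouse. One member passed the test across the array, the deleted *Cd151*. *Tspan32* was detected in all 4 Cd151+/+ mice and in no Cd151-/- mouse, and just missed that test. The other 8 genes tested, *Cd9*, *Cd63*, *Cd81*, *Tspan4*, *Tspan7*, *Tspan17*, *Tspan31* and *Upk1a*, had overlapping groups, and no member was higher in Cd151-/- glomeruli by any test over all 8 mice. By limma, with Benjamini-Hochberg adjustment over 14967 probes, 0.0267% of the 11240 genes tested were called. At an unadjusted limma p of 0.05, 0 of the 10 members were higher, against 1.9% of all genes, and 2 were lower, against 2.47%. The median log2 difference of the 8 members other than *Cd151* and *Tspan32* was −0.09, and that of all genes was −0.0018.

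**Figure D1:**
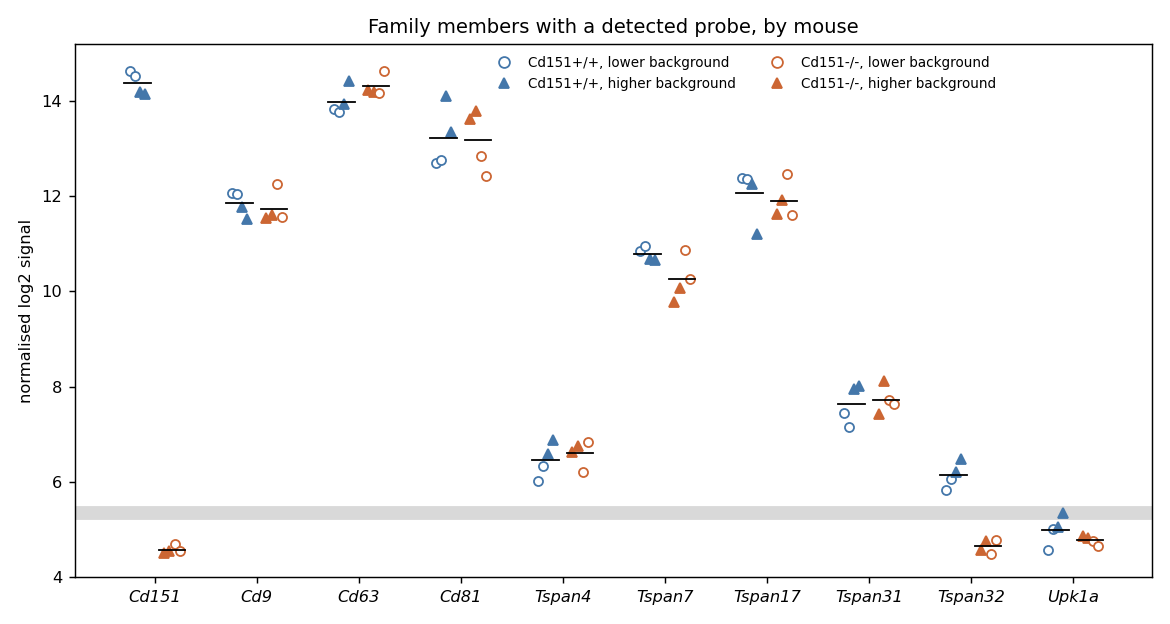
Normalised log2 signal of the 10 family members with a detected probe, 1 symbol per mouse, with the group mean as a line. The grey band spans the lowest signal of any detected probe on each array (5.22 to 5.48). *Cd151* and *Tspan32* lie below the band in all 4 Cd151-/- mice, and the groups of the other 8 members overlap.

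*Cd151* was read by 3 probes. At the brightest, ILMN_2836710, the Cd151+/+ mice 1 to 4 had signals of 14.62, 14.53, 14.20 and 14.15, and the Cd151-/- mice of 4.50, 4.55, 4.69 and 4.55. At ILMN_1235688 the Cd151+/+ mice had 11.69, 11.72, 12.10 and 12.43, and the Cd151-/- mice 4.77, 4.85, 4.57 and 4.56. At ILMN_2492403 they had 11.38, 11.26, 12.11 and 12.45, and 4.93, 4.81, 4.81 and 4.68. No probe was detected in any Cd151-/- mouse, so the labels of all 8 arrays match the genotype. By ILMN_2836710 the transcript was at least 523-fold lower (limma, adjusted p = 6.51e-10). That probe was brighter in Cd151+/+ mice 1 and 2 than in mice 3 and 4, and the other 2 probes ran the opposite way.

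*Tspan32*, also known as *Tssc6*, encodes a tetraspanin made mainly by blood cells. At its only probe, ILMN_2852672, the signals of Cd151+/+ mice 1 to 4 were 5.83, 6.05, 6.20 and 6.48, and those of the Cd151-/- mice were 4.57, 4.75, 4.48 and 4.77. The groups did not overlap, and the probe was detected in 4 and 0 mice. The means were 6.14 ± 0.27 (SD, n = 4) and 4.64 ± 0.14 (n = 4), a difference of −1.50 on the log2 scale (standard error 0.21, 95% interval −1.96 to −1.03). As no Cd151-/- array detected the probe, the fold is a bound, at least 1.74-fold lower. The exact permutation test gave p = 0.0286, the smallest that 4 mice against 4 allow, and the adjusted p was 0.0552 in limma. Groups that did not overlap, with Cd151-/- lower, were seen for 1.34% of all genes.

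The call for *Tspan32* depended on the fit, while its direction did not. The adjusted p from limma was 0.0151 with the array background as a block, 0.0174 with array weights and 0.0441 with no detection filter. It was 0.0422 where detection on all 4 arrays of a group was required. That filter uses the genotype groups, and *Tspan32* met it in Cd151+/+ mice alone, so this value is not separate support. The adjusted p from limma was 0.890 with the mouse number as a block and 0.995 with scaling to the 75th percentile. The differences there were −1.50 and −1.52. The size moved with the treatment of background, to −0.63 without background correction (adjusted p = 0.516) and −0.83 with an offset of 50 (adjusted p = 0.318), and to −2.48 by the equal-variance test of cubic-spline intensities (adjusted p = 0.879). Normalised by themselves, the lower-background arrays gave −0.68 and the higher-background arrays −2.06. Leaving out 1 mouse gave adjusted p of 0.0778 to 0.478, with a difference of −1.67 to −1.31. Taken set by set, the difference was −1.32 where the background was low and −1.68 where it was high.

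In the deposited signals, which carry the background, the *Tspan32* probe read 80.7, 76.6, 188 and 249 in Cd151+/+ mice 1 to 4, where the background was 65.2, 59.0, 123 and 129. In Cd151-/- mice it read 122, 133, 60.4 and 70.8, with backgrounds of 135, 129, 69.5 and 68.8. The transcript was thus a dim one in Cd151+/+ glomeruli, and in Cd151-/- glomeruli its signal could not be told from background.

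**Figure D2:**
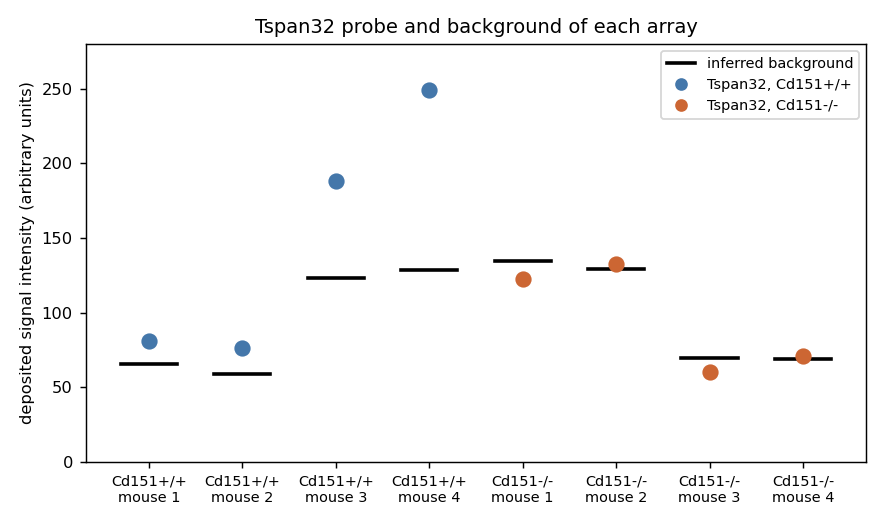
Deposited signal intensity of the *Tspan32* probe (points, arbitrary units) on each of the 8 arrays, with the inferred background of the same array (black bars). The points of the 4 Cd151+/+ mice stand above the bar, from 80.7 against 65.2 to 249 against 129, and those of the 4 Cd151-/- mice lie at it.

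Markers of blood cells were set beside *Tspan32*. *Cd37* and *Cd53*, the tetraspanins of leukocytes, were not detected on any array, and neither were the leukocyte markers *Ptprc*, *Itgam* and *Cd79a*. Of the 10 leukocyte markers on the array 7 were detected in at least 1 mouse, and their summed signal was 1462 to 2313 in Cd151+/+ and 1501 to 2115 in Cd151-/- mice. The median log2 difference of the 7 was −0.14, and none reached an unadjusted limma p of 0.05. *Coro1a*, an actin-binding protein of leukocytes, had groups that did not overlap, with 8.66, 8.91, 8.66 and 8.52 in Cd151+/+ and 7.98, 8.43, 8.50 and 8.46 in Cd151-/- mice, a difference of −0.34 (adjusted p = 0.918, limma). *Cd3e*, of T cells, was detected in every mouse and averaged 6.15 ± 0.50 among Cd151+/+ mice (SD, n = 4), with 5.70 ± 0.27 among Cd151-/- mice (n = 4).

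Among erythroid genes, *Hba-a1*, which encodes an alpha chain of haemoglobin, and *Alas2* were lower in Cd151-/- mice at an unadjusted limma p of 0.05 (adjusted p = 0.918 for each). *Alas2*, the enzyme of haem synthesis in red cell precursors, had 9.16, 9.80, 9.29 and 10.31 in Cd151+/+ and 6.03, 9.68, 7.08 and 5.49 in Cd151-/- mice. In Cd151-/- mouse 2, whose *Alas2* signal lay within the range of Cd151+/+ mice, *Tspan32* was at 4.75 and not detected. *Hba-a1* in that mouse was at 15.08, below the range of Cd151+/+ mice (15.14 to 15.57). Of the 3 platelet markers on the array, all of them detected in at least 1 mouse, the summed signal was 100 to 297 in Cd151+/+ and 96.3 to 223 in Cd151-/- mice. The part of these cells in the *Tspan32* result was not tested.

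*Tspan32* lies on the same chromosome as *Cd151*. By the RefSeq gene table of mouse assembly GRCm38.p6, 4 of the 17 member genes, *Cd151*, *Tspan4*, *Tspan32* and *Cd81*, lie on chromosome 7 within 10 Mb of one another. They come in that order, with 1 protein-coding gene between *Cd151* and *Tspan4* and none between *Tspan32* and *Cd81*. Between *Cd151* and *Tspan32* there are 1533 kb and 38 protein-coding genes, whose signals were not examined as a group. The promoters of these 4 genes are shown because a pair of them, *Cd151* and *Tspan32*, were at background in Cd151-/- mice, while *Tspan4* and *Cd81* were detected in every mouse. The windows are the 250 bases before the most upstream start that RefSeq lists, from GRCm38.p6, all on the + strand. They are chr7:141467112-141467361 for *Cd151*, chr7:141474986-141475235 for *Tspan4*, chr7:143004796-143005045 for *Tspan32* and chr7:143052500-143052749 for *Cd81*. Capitals mark matches, on either strand, to the GC box GGGCGG, the TATA box TATAAA and the GATA motif AGATAA.
Cd151: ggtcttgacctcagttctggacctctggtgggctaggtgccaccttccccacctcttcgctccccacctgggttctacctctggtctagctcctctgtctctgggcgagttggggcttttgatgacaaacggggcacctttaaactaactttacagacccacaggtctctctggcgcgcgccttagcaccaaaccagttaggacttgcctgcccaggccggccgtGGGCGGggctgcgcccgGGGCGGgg
Tspan4: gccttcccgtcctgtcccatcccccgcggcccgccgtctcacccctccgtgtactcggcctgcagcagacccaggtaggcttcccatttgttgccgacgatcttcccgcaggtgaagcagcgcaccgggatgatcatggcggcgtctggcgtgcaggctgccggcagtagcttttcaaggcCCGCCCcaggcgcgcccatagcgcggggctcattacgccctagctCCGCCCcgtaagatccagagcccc
Tspan32: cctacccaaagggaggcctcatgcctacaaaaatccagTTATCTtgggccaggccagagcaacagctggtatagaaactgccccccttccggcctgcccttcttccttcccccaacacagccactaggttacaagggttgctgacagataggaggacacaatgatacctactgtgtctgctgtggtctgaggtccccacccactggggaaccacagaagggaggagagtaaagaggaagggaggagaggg
Cd81: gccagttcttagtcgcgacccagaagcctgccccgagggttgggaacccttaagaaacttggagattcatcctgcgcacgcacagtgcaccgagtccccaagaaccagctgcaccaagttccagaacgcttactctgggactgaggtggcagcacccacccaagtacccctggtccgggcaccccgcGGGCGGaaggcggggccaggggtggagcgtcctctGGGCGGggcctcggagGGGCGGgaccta

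The *Tspan32* window differed in make-up from the other 3. It holds 1 CG pair, against 12 in that of *Cd151*, 24 in that of *Tspan4* and 16 in that of *Cd81*, and the median over 32841 RefSeq promoters is 6. GC boxes, held by 32.7% of those promoters, number 2 in *Cd151*, 2 in *Tspan4*, 3 in *Cd81* and 0 in *Tspan32*. A GATA motif, held by 9.99%, stands 1 time in *Tspan32* and in none of the other 3 windows. No window holds a TATA box, found in 12.4%. These are matches of letters only, and what the deletion removed around *Cd151* is not given in the sources used here. Whether the DNA near *Cd151*, the sequence read by the *Tspan32* probe included, differed between the groups was not tested. The signal at background is therefore that of the probe in these mice. The paper listed *Tspan32* as abolished on these arrays. Its real-time PCR, on a further cohort, also found *Tspan32* lower in FVB/N Cd151-/- glomeruli and in those of a disease-resistant strain. Those PCR values are not part of the data used here.

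*Tspan4*, which marks the migrasomes left behind by moving cells, is next but 1 to *Cd151* and was detected in every mouse. Its signals were 6.02, 6.34, 6.59 and 6.87 in Cd151+/+ and 6.62, 6.75, 6.21 and 6.84 in Cd151-/- mice, with groups that overlapped. The difference was 0.15 (95% interval −0.39 to 0.69, adjusted p = 0.926, limma), with 0.35 in the low-background set and −0.04 in the other. Neither sign is settled within that interval.

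*Cd81*, the next gene to *Tspan32*, encodes a widely expressed tetraspanin that B cells use in their coreceptor. It had 12.71, 12.76, 14.10 and 13.35 in Cd151+/+ and 13.62, 13.79, 12.86 and 12.42 in Cd151-/- mice. The spread followed the arrays and not the genotype, since all 4 arrays with the higher background were above all 4 with the lower (13.71 against 12.69 in mean). The difference between genotypes was −0.06 (95% interval −0.90 to 0.79, adjusted p = 0.987, limma), and −0.10 and −0.02 within the sets. With the array background as a block the interval narrowed to −0.51 to 0.39.

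*Cd63*, a tetraspanin of late endosomes, lysosomes and exosomes and a binding partner of TIMP1, had the largest positive difference among the members. The signals at its brightest probe were 13.82, 13.78, 13.93 and 14.42 in Cd151+/+ and 14.24, 14.19, 14.17 and 14.62 in Cd151-/- mice. Cd151+/+ mouse 4 reached the range of the Cd151-/- mice and the other 3 lay below it. The difference was 0.32 (95% interval −0.18 to 0.81, adjusted p = 0.918, limma; exact permutation p = 0.114). In the low-background set it was 0.60 and in the other 0.04, and the remaining 2 probes differed by 0.16 and 0.19. On the lower-background arrays alone, normalised by themselves, *Cd63* reached an unadjusted limma p of 0.05, the only member higher in any setting tried, and its adjusted p there was 0.592.

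*Cd9*, which joins integrins and the EWI proteins in the web and is needed for sperm and egg to fuse, had 12.07, 12.04, 11.78 and 11.53 in Cd151+/+ mice. In Cd151-/- mice it had 11.53, 11.60, 12.26 and 11.56, so that mouse 3 was above all Cd151+/+ mice and the other 3 were near the lowest of them. The difference was −0.12 (95% interval −0.64 to 0.41, adjusted p = 0.940, limma).

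*Tspan7*, known for its role in neurons and as a gene of X-linked intellectual disability, was the member furthest below 0 after *Cd151* and *Tspan32*. It had 10.85, 10.95, 10.67 and 10.66 in Cd151+/+ and 9.79, 10.08, 10.87 and 10.27 in Cd151-/- mice. Cd151-/- mice 1, 2 and 4 were below all Cd151+/+ mice and mouse 3 was not. The difference was −0.53 (95% interval −1.09 to 0.02, unadjusted p = 0.0593 and adjusted p = 0.918 in limma). With the array background as a block the unadjusted p was 0.0192 and the adjusted p 0.383, and the lowest adjusted p of any setting tried was 0.0885, with array weights. The difference was −0.33 in the low-background set and −0.74 in the other.

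*Tspan17*, a TspanC8 member and so a partner of ADAM10, had 12.39, 12.37, 12.26 and 11.22 in Cd151+/+ and 11.63, 11.92, 12.47 and 11.60 in Cd151-/- mice. Both the lowest and the second highest of the 8 values at this probe came from Cd151+/+ mice. The difference was −0.16 (95% interval −0.85 to 0.54, adjusted p = 0.939, limma), and its other 2 probes differed by −0.42 and −0.16. In the low-background set it was −0.34 and in the other 0.03.

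*Tspan31*, a gene first found amplified in sarcoma, had 7.44, 7.15, 7.95 and 8.01 in Cd151+/+ and 7.43, 8.12, 7.71 and 7.62 in Cd151-/- mice. The groups overlapped almost wholly, with a difference of 0.08 (95% interval −0.49 to 0.65, adjusted p = 0.962, limma) that was 0.37 in the low-background set and −0.21 in the other. *Upk1a*, a uroplakin of the bladder lining, was detected in Cd151+/+ mouse 4 alone, at 5.35. Its difference of −0.21 (95% interval −0.70 to 0.27) compares signals at or near background.

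The 7 genes that no array detected were *Cd37* and *Cd53* of leukocytes, *Tspan11*, a tetraspanin close to CD151 in sequence, the uroplakin gene *Upk1b* and the L6 family genes *Tm4sf1*, *Tm4sf4* and *Tm4sf5*. Their 10 probes and the dimmer *Upk1a* probe had signals of 4.34 to 5.21, below the lowest signal of any detected probe on an array (5.22 to 5.48). *Tspan11* was read by 2 probes and detected by neither in any Cd151-/- mouse, where a transcript above the detection limit was not seen. A gene with no detected probe was not tested, and a level under that limit cannot be told from background.

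A further 16 tetraspanin genes are listed on the array under an older symbol, found through RefSeq synonyms, and are given here because the symbol rule left them out. They include *Cd82* (listed as *Kai1*), *Tspan3* (*Tm4sf8*), *Tspan6* (*Tm4sf6*) and *Tspan8* (*Tm4sf3*). Of these, 13 were detected and tested, 10 of them in every mouse, and 3 were not detected, *Tspan10* (*Ocsp*), *Tspan13* (*Tm4sf13*) and *Prph2* (*Rds*). By limma 0 of the 13 passed Benjamini-Hochberg adjustment and 0 reached an unadjusted p of 0.05, where 0.0267% of all genes passed adjustment and 1.9% were higher and 2.47% lower before it. The groups of each of the 13 overlapped, while 0.925% of all genes had groups apart with Cd151-/- higher and 1.34% with it lower. The differences ran from −0.48 for *Tspan18* to 0.37 for *Tspan8*, with a median of 0.11, 8 above and 5 below 0.

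**Figure D3:**
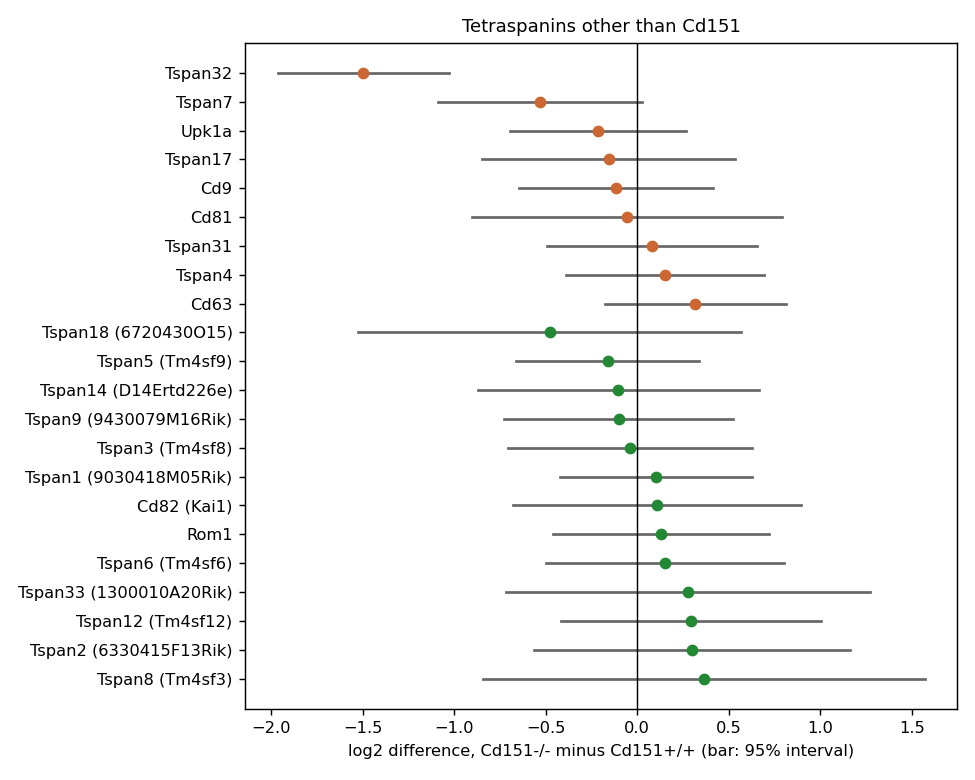
Log2 difference (Cd151-/- minus Cd151+/+) of the 9 tested members other than *Cd151* (orange) and of 13 tetraspanins listed under an older symbol (green, older symbol in brackets where it differs), with the 95% interval from limma as bars. The interval of *Tspan32* (−1.96 to −1.03) lies below 0, and the intervals of the other 21 genes include 0.

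*Cd82*, a suppressor of metastasis that binds integrins, had 10.70, 10.36, 11.04 and 11.89 in Cd151+/+ and 11.18, 11.78, 10.59 and 10.88 in Cd151-/- mice. The groups covered nearly the same range, with a difference of 0.11 (95% interval −0.68 to 0.89, adjusted p = 0.962, limma). *Tspan12*, which helps Frizzled 4 respond to norrin, differed by 0.29 (95% interval −0.42 to 1.00) and its difference was 0.62 in the high-background set and −0.03 in the other.

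Among the TspanC8 genes under older symbols, *Tspan14* differed by −0.10, *Tspan33* by 0.28 and *Tspan5* by −0.16, the last detected in 1 mouse. *Tspan33*, a gene of red cell precursors and activated B cells, had 9.01, 8.84, 7.94 and 8.80 in Cd151+/+ and 8.61, 8.01, 8.72 and 10.36 in Cd151-/- mice. Its highest value was that of Cd151-/- mouse 4, in which *Alas2* was lowest.

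Most tetraspanin signals, like those of most genes, shifted more between the sets of arrays than between genotypes. Of the 22 tetraspanins tested other than *Cd151*, 18 shifted more between higher- and lower-background arrays than between Cd151-/- and Cd151+/+ mice, as did 69.1% of all genes. The exceptions were *Tspan32*, *Tspan7*, *Cd63* and *Tspan5*. The sets did not overlap for 8 of them, 7 higher on the higher-background arrays and 1 lower, against 12.7% and 12.1% of all genes. The 7 were *Cd81*, *Cd82*, *Tspan2*, *Tspan3*, *Tspan8*, *Tspan12* and *Tspan14*, with shifts from 0.74 for *Tspan12* to 1.62 for *Tspan8*. *Tspan18* was the 1 lower, by −1.39, while its second detected probe moved by −0.21, with sets that overlapped. *Tspan32* moved by 0.21 between the sets and by −1.50 between genotypes.

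**Figure D4:**
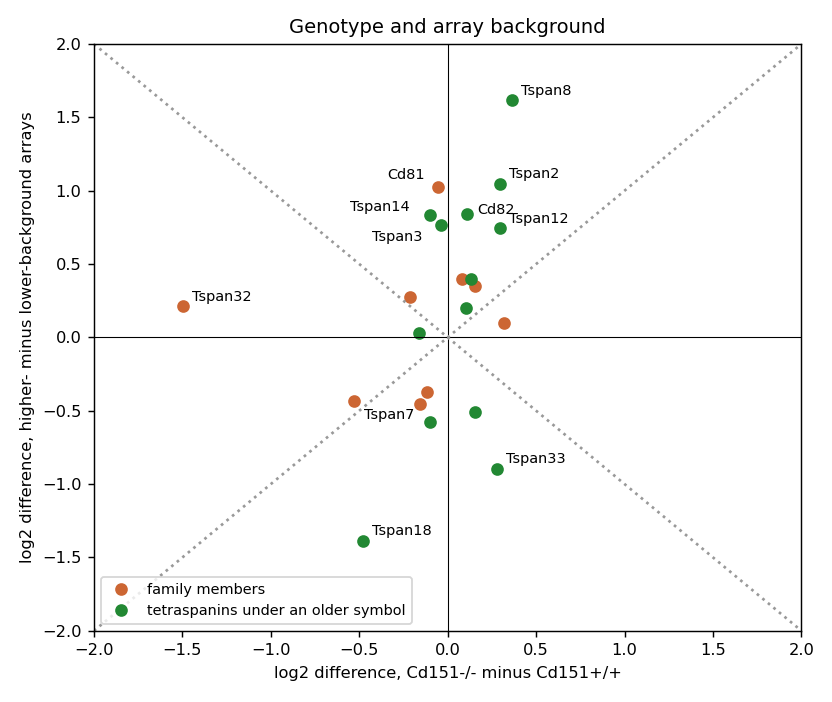
Log2 difference between genotypes (x axis) against that between the higher- and lower-background arrays (y axis) for 22 tetraspanins, with dotted lines where both are equal in size. Most genes lie above or below the dotted lines, where the array shift is the larger, as *Tspan8* (0.37 and 1.62) does, while *Tspan32* lies far to the left (−1.50 and 0.21).

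With the array background as a block, *Cd151*, *Tspan32* and *Tspan7* were lower at an unadjusted limma p of 0.05, 3 of the 10 members, and 0 were higher. In that fit 5.63% of all genes were lower and 5.21% higher. *Tspan18* also reached that threshold (unadjusted p = 0.0378 and adjusted p = 0.427 in limma), and its difference was −0.47 and −0.48 within the sets. Its second probe did not (unadjusted p = 0.134, limma), with −0.58 in the low-background set and −0.20 in the other. The members past Benjamini-Hochberg adjustment were then *Cd151* and *Tspan32*, where 0.0534% of all genes passed.

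Proteins that tetraspanins bind were read on the same arrays. Of 27 partner symbols listed, 23 were on the array and 16 had a detected probe. *Itga3* and *Itgb1*, the chains of the integrin that CD151 binds in podocytes, differed by −0.08 (95% interval −0.63 to 0.47) and −0.06 (−0.55 to 0.44), and *Itgb4* by 0.15 (−0.45 to 0.75). Set by set, *Itga3* differed by −0.23 and 0.07, *Itgb1* by −0.35 and 0.24 and *Itgb4* by −0.22 and 0.52, the low-background set first. A second detected probe differed by −0.46 for *Itgb1* (95% interval −1.12 to 0.20) and by −0.54 for *Itgb4* (−1.20 to 0.13), the latter opposite in sign to the brighter probe. With the array background as a block the interval of that *Itgb4* probe was −1.03 to −0.05 (unadjusted p = 0.0353, limma). *Itga6*, *Adam10*, *Igsf8* and *Ptgfrn* were not detected on any array. By limma 0 of the 16 passed Benjamini-Hochberg adjustment, and at an unadjusted p of 0.05 *Timp1* was higher and none was lower, where 1.9% of all genes were higher and 2.47% lower. The median difference was 0.06. With the array background as a block, *Timp1* and *Cldn1* were higher by that threshold (unadjusted p = 0.00408 and 0.0133, limma), where 5.21% of all genes were higher.

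*Timp1*, the inhibitor of metalloproteinases that also binds CD63, had 7.03, 7.08, 6.91 and 6.10 in Cd151+/+ and 7.63, 7.24, 7.59 and 7.81 in Cd151-/- mice. The lowest Cd151-/- value exceeded the highest Cd151+/+ value, which was the case for 0.925% of all genes. The difference was 0.79 (95% interval 0.21 to 1.36, unadjusted p = 0.0124 and adjusted p = 0.918 in limma). At its second probe, which differed by 0.68, the groups overlapped, with Cd151-/- mouse 2 at 7.11 and Cd151+/+ mouse 2 at 7.21. *Cldn1*, a claudin found in tetraspanin complexes, differed by 0.64 (95% interval −0.01 to 1.29) with groups that overlapped.

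**Figure D5:**
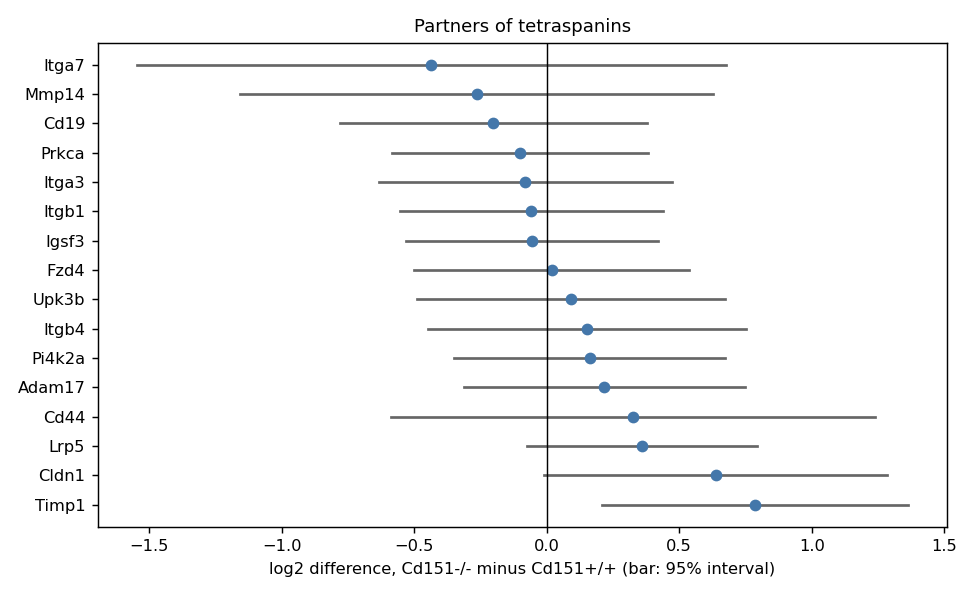
Log2 difference (Cd151-/- minus Cd151+/+) of 16 tetraspanin partners with a detected probe, with the 95% interval from limma as bars. *Timp1* (0.21 to 1.36) is the 1 gene whose interval lies above 0, and those of the integrin genes *Itga3*, *Itgb1* and *Itgb4* include 0.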

How the data were processed

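RNA of isolated glomeruli of 4 Cd151+/+ and 4 Cd151-/- mice was amplified, biotin-labelled and read on Illumina MouseRef-8 v1.1 arrays. The authors deposited each probe's signal intensity, the mean brightness of its beads, with neither background subtraction nor normalisation. The deposited detection p-values come from the negative-control probes and move in steps of 1/798. The values of the paper had further been cubic-spline normalised and filtered in Genome Studio.

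Groups and mouse numbers came from the sample titles. Background was inferred through the detection p-values and corrected by nec of limma 3.58.1 (R 4.3.3) with an offset of 16, followed by quantile normalisation. Genotypes were compared by lmFit and eBayes over all probes that any array detected, adjusted by Benjamini-Hochberg over the whole of them. Single probes were also tested by a two-sided exact permutation test over 70 relabelings. SAM, used by the study, was not run. Where a gene had several probes, its brightest by mean stands for it, and genes were counted by it. A fold against a group that no array detected is a bound: per array, the dimmest detected probe, or the probe's own signal if higher, took the place of the undetected one. The sums of marker signals are over background-corrected normalised signals on the linear scale, with 1 probe per gene. The fits were tested on simulated data.

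Values in every mouse are given for *Cd151*, members with an unadjusted p of 0.05 or lower, the 6 brightest members in Cd151+/+, neighbours of *Cd151* within 10 Mb and *Tspan11* if detected. They are also given for *Tspan31*, *Cd82*, *Tspan33*, *Timp1*, *Alas2* and *Coro1a*, all but *Timp1* chosen after their values were seen. A ranking by protein identity to CD151 was not made. All 17 member symbols matched RefSeq. Promoters are from RefSeq (GRCm38.p6), 250 bases before the start. The members and lists were chosen with earlier results of these data known. Alternatives were other background correction, normalisation, offsets and detection filters, blocks for mouse number or array background, other variance models, array weights, the equal-variance test of cubic-spline intensities, the mean of a gene's probes and each mouse left out. Fits of each background set alone were chosen after seeing the data. The number of arrays, and signals of detected probes at 3.00 to 4.46 times the background at the median, limit the precision. Some marker genes are not reported here.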

Additional observations from a re-analysis of the deposited data

Results flagged for a closer look

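Within a group of 4 mice, 4 values stood far from the other 3 by Dixon's criterion, among 78 groups of tetraspanins and partners examined, or 5.13%, and chance gives about 1 in 20. *Cd63* was at 14.62 in Cd151-/- mouse 4, with the others at 14.17 to 14.24. *Cd9* was at 12.26 in Cd151-/- mouse 3, with the others at 11.53 to 11.60. *Tspan17* was at 11.22 in Cd151+/+ mouse 4, with the others at 12.26 to 12.39. *Mmp14*, a membrane metalloproteinase that associates with tetraspanins, was at 9.94 in Cd151-/- mouse 4, with the others at 11.63 to 11.69.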

How the results depend on the processing

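The direction of *Cd151*, *Tspan32*, *Tspan7*, *Cd9* and *Cd63* was the same in every setting tried. With the array background as a block, 2 members passed adjustment (*Cd151* and *Tspan32*), of 8 probes in all, and 780 probes were higher and 910 lower before adjustment, where the fit without it gave 253, 390 and 5 past adjustment. Array weights also passed 2 members, with 2336 probes higher and 2480 lower. Using no detection filter passed 2 as well, with 431 higher and 663 lower. So did detection on all 4 arrays of a group, which *Tspan32* met in Cd151+/+ mice alone. Scaling to the 75th percentile gave 139 higher and 250 lower. Probes past adjustment numbered 1 by the equal-variance test of cubic-spline intensities. With the mean of a gene's probes, 2 genes passed, a count of genes and not of probes. The lower-background arrays alone gave 1 member higher (*Cd63*), 550 probes higher and 3 past adjustment, and the higher-background arrays alone gave 464 higher.

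Leaving out 1 mouse gave 122 to 628 probes higher, the most without Cd151-/- mouse 3, and 195 to 763 lower, and in each case 1 member passed adjustment. *Cd81*, −0.06 as reported, turned to 0.0692 with cubic spline normalisation, 0.50 with array weights and 0.10 by the equal-variance test, and ran from −0.27 to 0.23 with 1 mouse left out. *Tspan31* ran from −0.0817 to 0.20 with 1 mouse left out, and on the higher-background arrays alone *Tspan31* was −0.21, *Tspan4* −0.0441 and *Tspan17* 0.0365.

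With the mouse number as a replicate block, 205 probes were higher and 215 lower, and *Tspan32* had an adjusted p of 0.890. The deviations of same-numbered mice correlated at −0.58, −0.40, −0.53 and −0.01, and 0 of 8 arrays were closest to their own number. Every same-numbered pair also lay across the background sets, so the effects of number and array background cannot be told apart in this check, and the labels give the numbers no shared litter or batch. The detection limit sets what can be said of *Tspan32* in Cd151-/- mice and of the members no array detected.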
